A study of Oryza sativa with 14 samples.

Results

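The genes described here are 9 rice small heat shock protein genes that lie outside the tandem clusters of chromosomes 1 and 3. They were chosen by family name and compartment, with earlier results of these data known, and they make up 9 of the 55986 loci counted. Rice nomenclature assigns HSP18.0 (LOC_Os01g08860) to cytosolic class II, HSP18.6 (LOC_Os02g54140) to cytosolic class III and HSP16.0 (LOC_Os06g14240) to the peroxisome. HSP26.7 (LOC_Os03g14180) is the plastid form, HSP24.1 (LOC_Os02g52150) the mitochondrial form, and HSP23.2 (LOC_Os04g36750) and HSP21.9 (LOC_Os11g13980) are endoplasmic reticulum (ER) forms. HSP19.0 (LOC_Os02g12610) is listed as cytosolic, and HSP17.8 (LOC_Os02g48140) was given no class. The symbols of HSP19.0 and HSP17.8 are less certain for these loci than the other 7. The table of counts names loci only, so these compartments are background and were not measured.

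Small heat shock proteins are chaperones that work without ATP. They form oligomers that hold unfolding proteins in a soluble state, and HSP70 and the HSP101/ClpB disaggregases later refold what they hold. Plants keep separate forms in the cytosol and in most organelles, and heat shock transcription factors switch their genes on.

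Leaf RNA was sequenced from rice seedlings of the cultivar Zhonghua 11 (ZH11) at the 4-leaf stage, in pots, in a search for genes downstream of HTG3. The 14 libraries came from 2 htg3 mutant lines, cr12 and cr2, and from wild-type (WT) plants, either heated at 42 °C for 0.5 h or left at normal conditions. There were 2 heated cr12, 2 heated cr2 and 3 heated WT libraries, and 2 untreated cr12, 2 untreated cr2 and 3 untreated WT libraries. The protocol calls the mutants transgenic lines, each is a single line, and the labels give neither the locus nor the allele, so the mutation was not checked in the counts. Nothing in the labels says that libraries of a group came from separate plants, so p-values measure only the spread between these samples, which may be technical.

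Library totals lay between 92 M and 99.4 M counts (M, mega), and replicate libraries correlated at r of 0.9876 to 0.9937 across genes on the log2(CPM + 1) scale. CPM are counts per 1 M of a library's total over tested genes, after that total is multiplied by its TMM normalisation factor from edgeR. The factors ran from 0.899 to 1.099. Summed CPM of 4 leaf markers ran from 11700 to 14600 in heated cr12, 20700 to 21600 in heated cr2 and 13900 to 19900 in heated WT leaves, and from 30100 to 46700 in untreated leaves. Of these markers RCA fell most after heat, by -3.27 on the log2 scale in WT and -3.69 in the htg3 lines. PsbO was at -0.8 in both. CAB1R (0.04 and -0.14) and CAB2R (-0.32 and -0.14) were not called by edgeR. Of 2 meristem markers 1 could be tested, and it stayed at or below 0.126 CPM everywhere. Of 3 root markers 2 could be tested, and their sum was between 14 and 27.2 CPM in heated leaves and between 4.75 and 9.76 CPM in untreated leaves. Nearly all of it was Lsi1, as RCc3 had no count in untreated leaves and at most 0.808 CPM in heated leaves. The sum of 3 markers of dividing cells was 55.4 to 67.1 CPM in heated cr12, 46.3 to 71.8 in heated cr2 and 22 to 33.8 in heated WT leaves, and 14.6 to 22.9 in untreated leaves. In WT, MCM2 was at -0.2 on the log2 scale after heat and not called, while PCNA rose by 0.82 and MCM7 by 2.3. All 3 rose in the htg3 lines. The part of these markers in the results was not tested. In bulk leaf RNA, fewer cells of a type and less RNA per cell cannot be told apart.

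Of the 9 genes, 8 had enough counts to be tested among 28823 genes. HSP19.0 had no count in any of the 14 libraries and is not described further. HSP21.9 passed the filter on low counts only through the heated libraries, whereas the other 7 also passed on the untreated libraries alone. A gene that enters in that way has to differ between treatments, so HSP21.9 is described by its levels and not counted among the genes that rose.

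The 7 genes that passed the filter in untreated leaves were at most 17.9 CPM there, and all 7 rose in heated leaves of both the htg3 lines and WT. In heated leaves the 9 genes together took 1.68% and 2.11% of all counts in cr12, 1.19% and 1.4% in cr2, and 1.44%, 1.73% and 1.66% in WT. In untreated leaves they took between 0.0012% and 0.0052%. For these 7 genes every heated library was above every untreated library, in the htg3 lines and in WT. Among all tested genes, 27.6% were called higher after heat in the htg3 lines and 24.8% in WT by edgeR's quasi-likelihood test with Benjamini-Hochberg adjustment. The adjusted p of the 7 genes ran from 1.1e-10 to 2.7e-06 in the htg3 lines and from 6.7e-10 to 3.8e-06 in WT. Heated libraries lay above untreated ones without overlap for 23.6% of tested genes in the htg3 lines and 28.3% in WT.

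HSP18.0, the cytosolic class II protein, reached 8473 and 11375 CPM in heated cr12, 6387 and 6818 in heated cr2, and 7879, 9505 and 8470 in heated WT leaves. Untreated leaves held 3.06 and 17.9 CPM in cr12, 6.25 and 3.21 in cr2, and 4.17, 4.67 and 3.79 in WT. Both heated cr2 libraries were below all heated WT libraries, whereas the heated cr12 libraries overlapped with WT. The fold between heated and untreated means was 948 in cr12, 1400 in cr2 and 2050 in WT. The cr12 fold rested on 1 library: it was 3240 without the second untreated cr12 library and 556 without the first, above and below the values of cr2 and WT. On the log2 scale the fitted rise was 10.17 ± 0.57 (SE) in the htg3 lines and 11 ± 0.68 in WT, with edgeR adjusted p of 2.6e-08 and 9.2e-08.

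HSP18.6, the class III form, belongs to a class found in the nucleus and cytosol in Arabidopsis. Heated leaves had 2214 and 3161 CPM in cr12, 1262 and 1550 in cr2, and 2142, 2597 and 2482 in WT. Untreated leaves had 6.28 and 12.7 CPM in cr12, 4.94 and 2.15 in cr2, and 7.74, 8.36 and 8.1 in WT. The cr2 libraries were the lowest of their treatment in both cases and did not overlap with WT. Heat raised the mean 284-fold in cr12, 396-fold in cr2 and 298-fold in WT, with 428 in cr12 without its second untreated library and 653 in cr2 without its first. The edgeR log2 rises were 8.39 ± 0.34 (SE) in the htg3 lines and 8.22 ± 0.39 in WT.

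HSP17.8 had 119.8 and 143 CPM in heated cr12, 73.7 and 157 in heated cr2, and 132, 199 and 169 in heated WT leaves. It stayed between 0.121 and 0.635 CPM in the 7 untreated libraries. The groups overlapped within each treatment, and the first heated cr2 library was the lowest heated one. The fold was 415 in cr12, 271 in cr2 and 391 in WT. Leaving out 1 untreated library gave 1080 or 256 in cr12, and leaving out the second heated library gave 173 in cr2. By the fit, the edgeR log2 rise was 8.38 ± 0.44 (SE) in the htg3 lines and 8.61 ± 0.5 in WT.

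HSP16.0 is the peroxisomal form. It had 244 and 272 CPM in heated cr12, 149.6 and 212 in heated cr2, and 219.5, 334 and 269 in heated WT leaves. Untreated leaves had 0.968 and 1.04 CPM in cr12, 0.672 and 0.452 in cr2, and 1.2, 1.36 and 0.929 in WT. Both cr2 libraries were below all WT libraries in each treatment. Heat raised its mean 257-fold in cr12, 322-fold in cr2 and 236-fold in WT, with edgeR log2 rises of 8.16 ± 0.22 (SE) in the htg3 lines and 7.88 ± 0.25 in WT.

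HSP26.7, which protects chloroplast proteins during heat, had 635 and 908 CPM in heated cr12, 553 and 934 in heated cr2, and 787, 1027 and 1081 in heated WT leaves. Untreated leaves had 0 and 1.33 CPM in cr12, 0.592 and 0.183 in cr2, and no count in any of the 3 WT libraries. Heated groups overlapped, while both untreated cr2 libraries and 1 of 2 untreated cr12 libraries had counts that WT lacked. The fold was 1160 in cr12 and 1920 in cr2. Without the first or the second untreated library it was 581 or at least 6380 in cr12, and 4060 or 1260 in cr2. In WT it was at least 24100, taken against a floor of 12 counts over the group, which stands for about 3 fragments. That bound drops to 15800 at the lowest when 1 untreated WT library is left out, since the floor is then shared by fewer libraries.

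HSP24.1, the mitochondrial form, had 4917 and 6156 CPM in heated cr12, 3511 and 4142 in heated cr2, and 3387, 4970 and 3839 in heated WT leaves. Untreated leaves had 2.95 and 13.2 CPM in cr12, 7.49 and 5.97 in cr2, and 7.01, 3.51 and 3.88 in WT. In both treatments the groups overlapped with WT. The fold was 684 in cr12, 569 in cr2 and 847 in WT, and in cr12 it was 1870 without the second untreated library and 419 without the first. The edgeR log2 rise was 9.28 ± 0.51 (SE) in the htg3 lines and 9.73 ± 0.6 in WT.

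HSP23.2, an ER form, had 195 and 277 CPM in heated cr12, 185 and 528 in heated cr2, and 406, 505 and 546 in heated WT leaves. Both heated cr12 libraries and 1 of 2 heated cr2 libraries were below all heated WT libraries, and the other cr2 library was within the WT range. Leaving out 1 library at a time moved the cr2 estimate against heated WT, -0.44 on the log2 scale, between -1.42 and 0.09. Untreated leaves had 0 and 0.512 CPM in cr12, 0.241 and 0.258 in cr2, and 0, 0.0202 and 0.145 in WT. The fold was 923 in cr12, 1430 in cr2 and 8810 in WT, the last against only 17 untreated counts, 15 of them in 1 library. It was 461 in cr12 without the first untreated library, at least 1950 without the second, and 743 in cr2 without the second heated library.

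HSP21.9, the other ER form, had 120.2 and 132 CPM in heated cr12, 91.9 and 174 in heated cr2, and 116, 153 and 164 in heated WT leaves, and these groups overlapped. Of the 7 untreated libraries only the second cr12 library had counts, 15 in all. The fold was 1710 in cr12, at least 2130 in cr2 and at least 3600 in WT against the floor. These bounds drop to 1030 or 1100 in cr2 and to 2360 at the lowest in WT when an untreated library is left out, and the cr12 value is 855 or at least 1040. With bounds included and HSP21.9 left out, the median log2 heat change of the other 7 genes was 9.42 in cr12, 9.15 in cr2 and 9.73 in WT, against -0.03 in the htg3 lines and -0.05 in WT for the fitted values of all tested genes.

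**Figure D1:**
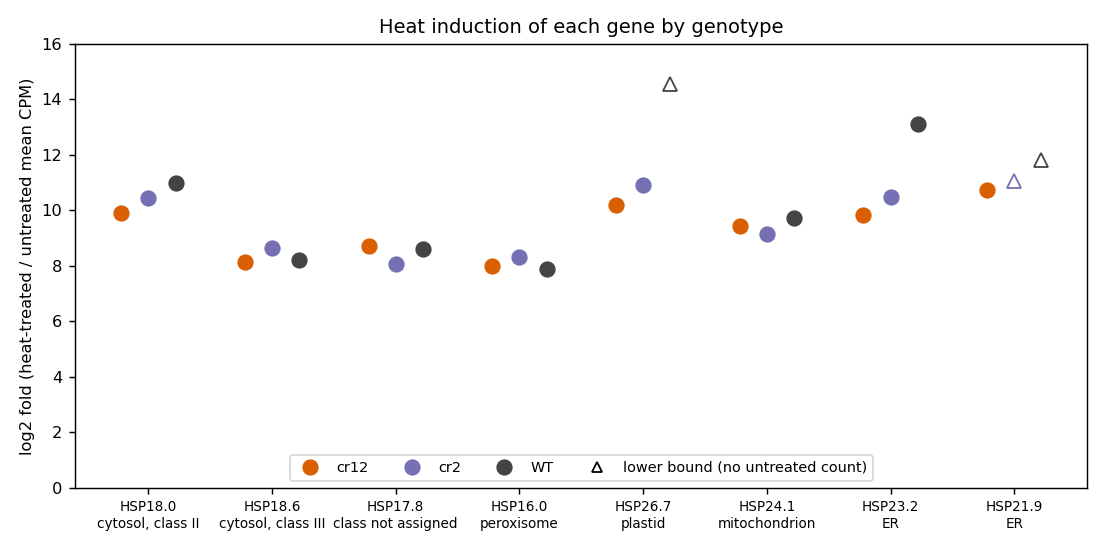
Fold change of mean CPM after heat for each tested gene in cr12, cr2 and WT, on a log axis, with lower bounds marked where a group had no untreated count. The smallest fold is 236 for HSP16.0 in WT and the largest bound is 24100 for HSP26.7 in WT.

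**Figure D2:**
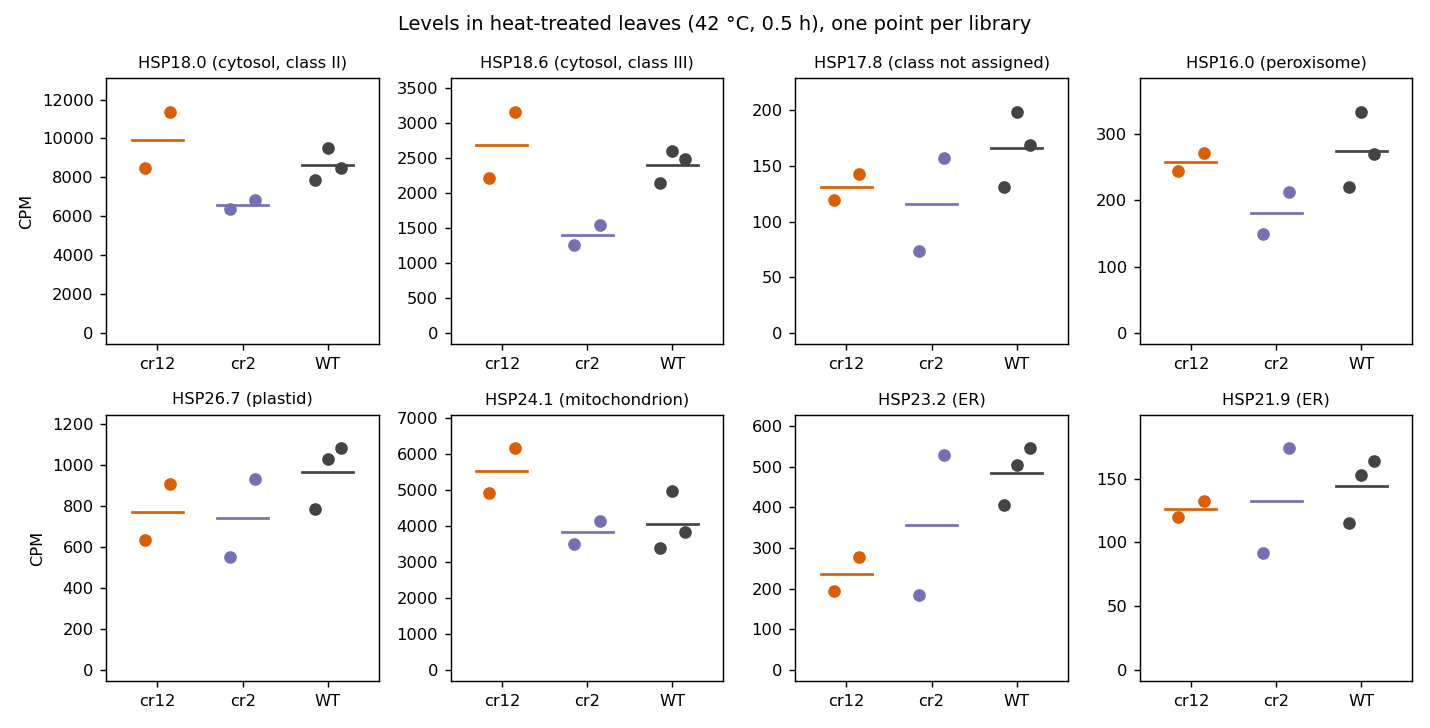
CPM of the 8 tested genes in each heated library, 1 panel per gene, for cr12, cr2 and WT, with points for libraries and bars for group means. For HSP23.2 both cr12 points lie below the 3 WT points, at 195 and 277 CPM.

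After heat, edgeR called 0 of the 8 genes between the htg3 lines and WT, where 7.21% of all tested genes were called. DESeq2 (15.3% of all genes called) and limma voom (8.43%) also called 0. The all-gene count behind the edgeR share, 2077, fell to 718 without the first heated WT library and 732 without the second heated cr2 library. The largest estimate was for HSP23.2, at -0.74 on the log2 scale (95% interval -1.79 to 0.3, edgeR adjusted p = 0.38), where 3 of 4 htg3 libraries were below all WT libraries. HSP17.8 was at -0.44 (-1.14 to 0.27), HSP26.7 at -0.35 (-1.68 to 0.98), HSP16.0 at -0.34 (-0.71 to 0.02) and HSP18.6 at -0.31 (-0.89 to 0.27). HSP21.9 was at -0.15 (-0.84 to 0.53), HSP18.0 at -0.09 (-1 to 0.81) and HSP24.1 at 0.18 (-0.67 to 1.02). The median of the 8 was -0.33, against -0.02 for all tested genes, and none of the 8 separated the 4 htg3 libraries from WT, where 8.74% of tested genes did so upward and 8.76% downward. The intervals of HSP17.8, HSP26.7 and HSP23.2 reach below -1, and that of HSP24.1 reaches above 1.

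**Figure D3:**
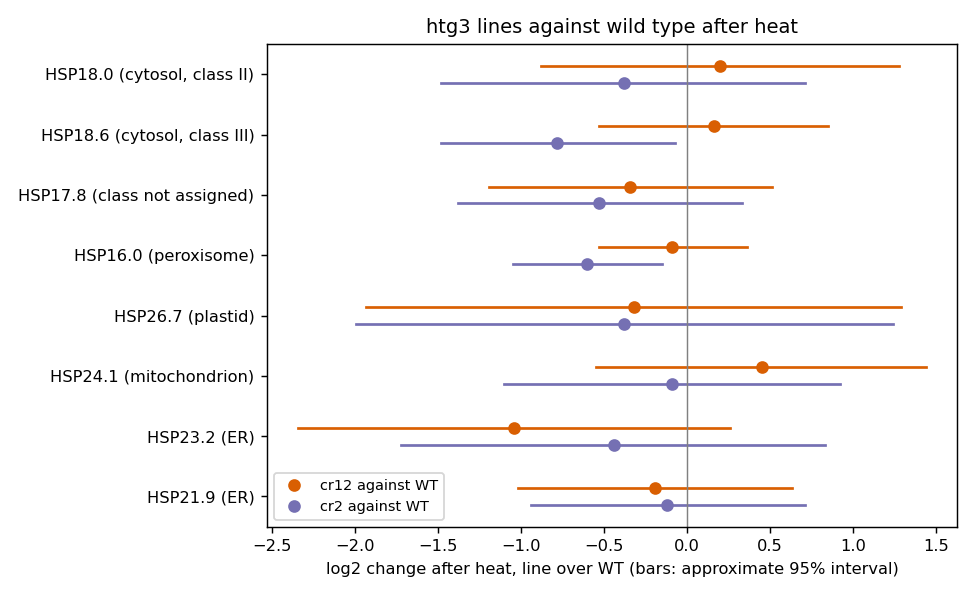
Log2 difference from heated WT of cr12 and of cr2 for each tested gene, with 95% intervals from edgeR. All intervals of cr12 include 0, while those of cr2 for HSP18.6 and HSP16.0 lie below 0 before adjustment.

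The lines were also compared with WT one at a time. In heated cr12, edgeR called 0 of 8 (5.53% of tested genes), and DESeq2 (12.3%) and voom (6.78%) called 0. HSP23.2 alone lay below WT without overlap (19.7% of tested genes did), at -1.04 on the log2 scale (-2.34 to 0.26, adjusted p = 0.33). In heated cr2, edgeR called 0 of 8 (7.81%), DESeq2 called 2 (15.5% of all genes) and voom called 2 (9.54%). HSP16.0 was at -0.6 (-1.05 to -0.15, edgeR adjusted p = 0.096) and HSP18.6 at -0.78 (-1.48 to -0.07, edgeR adjusted p = 0.17). These and HSP18.0 lay below WT without overlap, 3 of 8 genes, against 19.4% of all tested genes.

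Set against each other, heated cr12 leaves were above heated cr2 leaves without overlap for HSP18.0, HSP18.6, HSP16.0 and HSP24.1. That is 4 of 8 genes, against 23.9% of all tested genes. edgeR called 0 of 8 (5.62%), DESeq2 called 1 (10.1% of all genes) and voom called 0 (5.64%). HSP18.6 differed by 0.93 on the log2 scale (0.17 to 1.7, edgeR adjusted p = 0.16) and HSP24.1 by 0.53 (-0.57 to 1.64, adjusted p = 0.66). The first heated cr2 library had the lowest level of the 7 heated libraries for 7 of 8 genes, where 10.7% of all tested genes had their lowest level there.

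**Figure D4:**
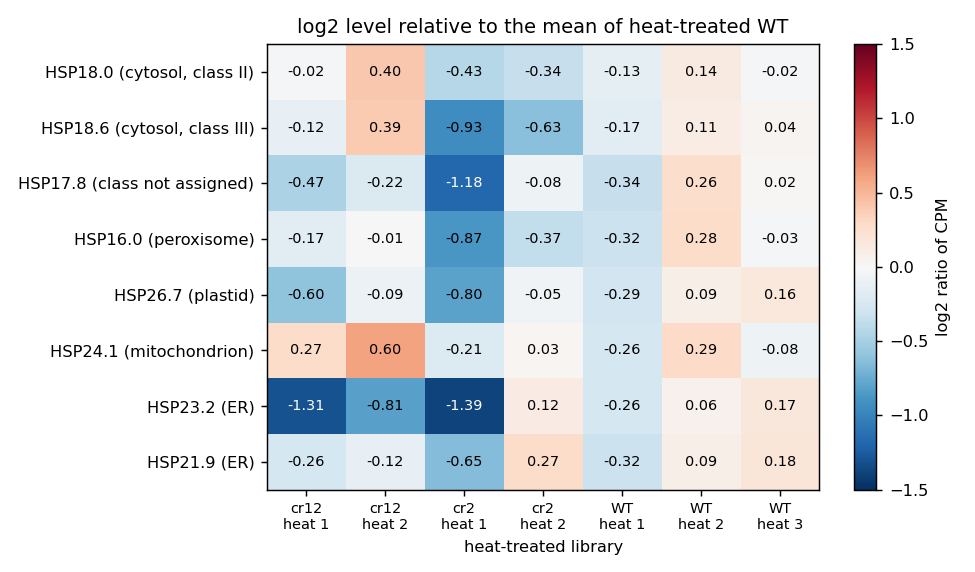
Log2 ratio of each heated library to the mean of heated WT for the 8 tested genes, with the value in each cell. The first cr2 library is below the WT mean for all 8 genes, from -0.21 for HSP24.1 to -1.39 for HSP23.2.

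Ratios within a library remove its depth. HSP24.1 was 58% and 54.1% of the HSP18.0 count in heated cr12, 55% and 60.7% in heated cr2, and 43%, 52.3% and 45.3% in heated WT leaves. All 4 htg3 libraries were above all 3 WT libraries by this ratio, which was chosen after its values were seen and was not tested. The ratios of the other tested genes to HSP18.0 did not separate the htg3 libraries from WT. In heated cr2, HSP18.0 itself lay below all WT libraries (6387 and 6818 CPM), while HSP24.1 overlapped with WT. How often ratios of other gene pairs separate these groups was not counted. HSP23.2 was 2.31% and 2.43% of HSP18.0 in heated cr12, 2.9% and 7.75% in heated cr2, and 5.16%, 5.32% and 6.44% in heated WT leaves. Both cr12 libraries were below WT, and the cr2 libraries lay on both sides of it.

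In untreated leaves, edgeR called 0 of 8 genes between the htg3 lines and WT, against 3.07% of all tested genes. HSP21.9 is among the 8, but its only untreated counts were 15 in the second cr12 library, so its outcome carries no weight. DESeq2 called 2 (7.74% of all genes) and voom called 0 (3.69%). HSP16.0 was at -0.63 on the log2 scale (edgeR adjusted p = 0.14), HSP18.0 at 0.74 (0.43), HSP24.1 at 0.62 (0.49), HSP18.6 at -0.48 (0.42), HSP17.8 at -0.21 (0.89) and HSP23.2 at 2.14 (0.35). HSP26.7, with no WT count, had an adjusted p of 0.09. The second untreated cr12 library was the highest untreated library for 6 of 8 genes, where 17.7% of all tested genes had their highest level there. The 6 include HSP21.9 on its 15 counts and HSP23.2 at 0.512 CPM. That library also held 8.73 CPM of HSP101, the cytosolic disaggregase, against 1.37 in the first cr12 library. It held 6.69 CPM of HSFA2a, a heat-inducible heat shock factor, against 0. HSP70, HSP90 and ClpB-m were higher there too. HSFA2d went the other way, with 32 CPM against 137 in the first library. The ER chaperone GRP94 was slightly lower (228.8 against 238.8), and BiP1 (186.1 against 177.7) and ClpB-c (114.2 against 107.4) differed little. Without the second cr12 library the cr12 estimate for HSP18.0 was -0.46 in place of 1.31, and that for HSP24.1 was -0.7 in place of 0.75. For the lines together the same omission turned HSP18.0 to -0.14, HSP24.1 to -0.1 and HSP23.2 to -1.66, and without the third WT library HSP23.2 was at 4.47.

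In untreated cr12, edgeR called 0 of 8 (1.5%). DESeq2 called 2 (6.03%), HSP26.7 and HSP21.9, and voom called 0 (2.41%). HSP21.9 had 15 counts in 1 cr12 library and none in untreated cr2 or WT, so its outcome carries no weight here. In untreated cr2, edgeR called 1 of 8, the peroxisomal HSP16.0, where 5.49% of tested genes were called and 2.04% were called lower. It fell by 1.04 on the log2 scale, with an interval of -1.62 to -0.47 and an edgeR adjusted p of 0.042. Adjusted p ran from 0.0023 to 0.45 over its 11 alternatives, 4 of which called it. It was not called without WT replicate 1 (adjusted p = 0.094), WT replicate 2 (0.11), cr2 replicate 1 (0.05) or cr2 replicate 2 (0.36). Of the 8 genes in untreated cr2, DESeq2 called 3 (11% of all genes) and voom called 0 (6.06%). HSP18.6 was at -1.18 (edgeR adjusted p = 0.067), also with both cr2 libraries below WT. HSP26.7 and HSP23.2 were above WT without overlap, at levels under 1 CPM. Among all tested genes, 21.1% lay below WT without overlap and 18.5% above.

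Untreated cr12 and cr2 leaves differed in 0 of 8 genes by edgeR (3.8% of tested genes), DESeq2 called 3 (10.9%) and voom called 0 (4.83%). HSP18.6 was 1.41 log2 units higher in cr12 (0.61 to 2.21, edgeR adjusted p = 0.054) and HSP16.0 was 0.83 higher (adjusted p = 0.12). Both separated the lines without overlap, 2 of 8 genes, against 29% of all tested genes. The 3 DESeq2 calls were HSP18.6, HSP16.0 and HSP21.9, the last on 15 counts in the second cr12 library.

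**Figure D5:**
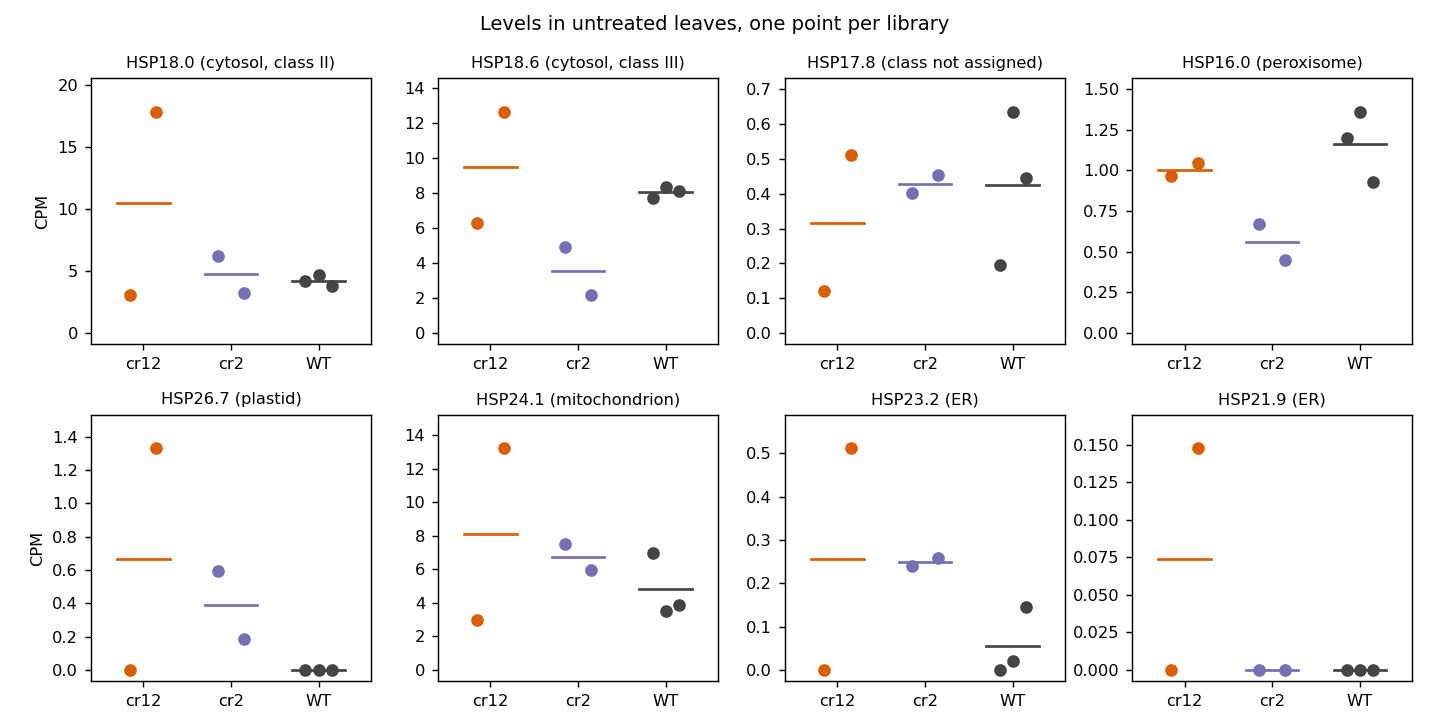
CPM of the 8 tested genes in each untreated library, 1 panel per gene, for cr12, cr2 and WT. The second cr12 library stands highest for 6 genes, among them HSP18.0 at 17.9 CPM and HSP21.9 on only 15 counts.

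For the difference in heat response between the htg3 lines and WT, edgeR's interaction test called 0 of 8 genes and 0.114% of all tested genes. DESeq2 called 1 (4.49% of all genes) and voom called 0 (0.0347%). HSP21.9, with untreated counts in only 1 library, carries no weight among the 8. HSP18.0 was at -0.83 on the log2 scale (edgeR adjusted p = 0.6), HSP24.1 at -0.44 (0.81), HSP17.8 at -0.22 (0.94), HSP18.6 at 0.17 (0.92) and HSP16.0 at 0.28 (0.71). HSP23.2 was at -2.88 (0.3), with near-zero untreated counts in each genotype, and HSP26.7 had an adjusted p of 0.16 with no WT count before heat. Without the second untreated cr12 library, HSP18.0 turned to 0.06, HSP24.1 to 0.29 and HSP23.2 to 0.92. Over its alternatives HSP23.2 ran from -5.21 to 0.92.

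Other genes of the pathway were listed for context. All 9 clustered small heat shock protein genes were called higher after heat in the htg3 lines and in WT. Among all tested genes, 27.6% and 24.8% were. LOC_Os01g04340 had at most 9 counts in any untreated library, so its call carries no more weight than that of HSP21.9. LOC_Os01g04360 had 59 counts in 1 untreated library and at most 9 in the others, so the same holds for its call. LOC_Os01g04350 rose by only 0.32 on the log2 scale in the htg3 lines, with overlapping libraries. After heat, 2 of the 9 were called lower in htg3 than WT, against 0 of the 8 genes here. Of all tested genes, 7.21% were called. The difference between the sets was not tested. Of 9 heat shock factor genes, 8 rose and HSFA1 fell in both, at -0.7 in the htg3 lines and -0.75 in WT on the log2 scale. All 7 listed chaperone partners rose in both, HSP101 by 11.02 ± 0.71 in the htg3 lines and 11.54 ± 0.84 (SE) in WT and the mitochondrial ClpB-m by 7.4 and 7.59. After heat, edgeR called 0 of 9 heat shock factors and 0 of 7 partners between htg3 and WT (7.21% of tested genes). Taken singly against WT, heated cr12 gave 0 of 9 factors (5.53% of tested genes) and heated cr2 gave 2, both lower (7.81%). Heated cr12 against heated cr2 gave 2 of 9, both higher (5.62%). The partners gave 0 in each of these.

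Over the 14 libraries, the genes whose log2(CPM + 1) was most like the mean standardised profile of the members were LOC_Os01g55270 and LOC_Os02g15930, both with r of 0.9991, and ClpB-m with 0.9989. These libraries include both treatments, and 281 of 28815 other genes exceeded 0.99. Over the 7 heated libraries alone the closest were LOC_Os03g19690 (0.9781), LOC_Os03g56540 (0.9759) and LOC_Os05g35970 (0.9724). Each member is part of that profile, which raises its own r with it, so these values do not compare with those of other genes. They ran from 0.604 for HSP24.1 and 0.663 for HSP23.2 to 0.947.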

How the data were processed

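The authors deposited 1 table of estimated counts per gene for all 14 libraries, as whole numbers named by MSU locus, so no rounding was needed. The submitters' processing notes name StringTie 1.3.3b, HISAT2 2.1.0, DESeq2 and fastp 0.20.1, with no roles and no genome build. Low values gather at 4 (9196 values, against 3918 at 3 and 5346 at 5), so 1 fragment was taken as about 4 counts, and counts were tested as deposited. Floors cover counting error only, whereas the intervals of log2 differences come from the edgeR fit and include the spread between libraries.

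One model of the 6 group means was fitted with edgeR 4.0.16 in R 4.3.3 (TMM factors, filterByExpr, quasi-likelihood test), with Benjamini-Hochberg adjustment over all 28823 tested genes and calls at adjusted p under 0.05. The htg3 value is the mean of cr12 and cr2. Alternatives used limma 3.58.1, DESeq2 1.42.0, other filters and libraries left out. Symbols come from rice nomenclature and were found for 9 of 9 members in a RefSeq name table, 9 on the chromosome of their ID, but that table holds no MSU IDs, and HSP17.8 and HSP19.0 were assigned with less certainty. All members were named, with the 3 genes most like their mean profile and listed pathway genes. Members and lists were chosen with earlier results of these data known.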

Additional observations from a re-analysis of the deposited data

How the results depend on the processing

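No paired analysis was possible because the labels give no replicate number or pairing and the numbers used here follow sample order only. Heat gave 8 calls in the htg3 lines and in WT under every alternative, of which that of HSP21.9 follows from its passing the filter through heated libraries. Of all tested genes, 39.8% to 64.8% were called there, in either direction. Also kept were the 0 calls for htg3 and for cr12 against WT after heat. With DESeq2 the calls against untreated WT were 2 for htg3 (7.74% of all genes), 2 for cr12 (6.03%) and 3 for cr2 (11%). Its calls for cr12 against cr2 were 3 untreated (10.9%) and 1 after heat (10.1%). For cr2 against WT after heat it gave 2 (15.5%), and for the interaction 1 (4.49%). Those DESeq2 calls of untreated cr12 against WT and against cr2 include HSP21.9, on 15 counts in 1 library. Limma voom gave 2 for cr2 after heat (9.54% of all genes) and 0 for cr2 untreated (6.06%). There edgeR gave 0 (7.81%) and 1 (5.49%). Without the filter there was 1 call for htg3 untreated (2.98% of all genes) and 2 for cr2 untreated (4.99%). There was also 1 for cr12 against cr2 untreated (3.88%). Counts divided by 4 gave 0 for cr2 untreated (7.6%) and 1 for cr12 against cr2 untreated (5.81%). Fitting only the groups compared gave 0 for cr2 untreated (5.17%). Leaving out 1 library gave 0 to 2 calls for htg3 and for cr12 untreated, 0 to 1 for cr2 untreated, for cr12 against cr2 untreated and for the interaction, and 0 to 0 for the comparisons after heat. Every call gained by leaving out 1 library came from a fit with only 1 untreated library left in cr12 or in cr2. These gained calls, of HSP18.0, HSP26.7 and HSP18.6, therefore carry no weight, and only estimates are given. Without cr12 untreated replicate 1, HSP18.0 was at 1.13 on the log2 scale in htg3 against untreated WT. The same omission gave HSP18.0 at 2.08 in cr12 against WT and 1.9 in cr12 against cr2. HSP26.7 had no count in untreated WT, so its estimates there are not given. Without cr2 untreated replicate 1, HSP18.6 was at -1.89 in cr2 against WT and 2.11 in cr12 against cr2. Of 1083 single values, 40 changed sign, 0 of them with a call. Over all genes and the 9 comparisons that involve genotype, DESeq2 called 1293 to 4467 where edgeR called 33 to 2252, with 1293 against 33 for the interaction. The interaction count was 10 with voom, 12 with DESeq2 size factors, 50 with counts divided by 4 and 126 without the filter, and 0 to 84 with 1 library left out. Fitting only the groups compared called 22 for cr12 against cr2 untreated (1094 with all groups), 95 for cr12 against WT after heat (1594) 292 for cr2 against WT after heat (2252) and 758 for htg3 against WT after heat (2077). Leaving out 1 library gave 718 to 2498 calls for htg3, 142 to 2039 for cr12 and 142 to 2507 for cr2 against WT after heat. The cause was not tested. Groups of 2 libraries, and near-zero untreated counts for HSP26.7, HSP23.2 and HSP21.9, limit what these comparisons can show.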
